A study of Saccharomyces cerevisiae with 12 samples.

Results

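Closely packed nucleosome calls are described here as pairs of neighbouring entries in a position list whose summits lie under 120 bp apart. The pairs were chosen in the WT1 list of nuclear nucleosomes, sorted by position on each chromosome, and 11557 of its 76032 adjacent pairs (15.2%) met this rule. The same rule was then applied to the other 5 lists, which held 14113 close pairs in Ioc3-KO, 13014 in Ioc3-R739E/R742E, 12353 in Ioc3-Q251K/D252K, 10589 in WT2 and 11190 in WT3. The spacing of the WT1 pairs therefore chose the members and is given as a description only.

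A nucleosome wraps more DNA than the distance used here, so the summits of such a pair cannot both be the centre of a fully wrapped nucleosome on the same DNA molecule at the same time. In a list built from many cells such a pair can stand for alternative positions in different cells, or for particles that have lost part of their wrap. Remodelers of the ISWI family, which include the yeast Isw1 complexes, slide nucleosomes into evenly spaced arrays. Ioc3 is the subunit that, with the ATPase Isw1, makes the ISW1a complex, which can bind a pair of neighbouring nucleosomes.

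The data are MNase-seq, in which micrococcal nuclease removes DNA that no nucleosome protects, from Saccharomyces cerevisiae BY4741 in YPD, harvested in mid-log phase. The 12 samples form 6 groups of 2 biological replicates: a deletion of IOC3 (Ioc3-KO), 2 groups with point mutations in Ioc3 (Ioc3-R739E/R742E and also Ioc3-Q251K/D252K), and 3 wild-type groups (WT1, WT2 and WT3), with the nuclease at 600, 1200 or 2400 gel unit per ml in every group. The authors deposited 1 list per group, so each genotype has n = 1 list with both replicates pooled, and comparisons of Ioc3 with wild type set 3 lists of different genotypes against 3 lists of the same genotype. The point mutants are named here by their amino acid changes, and no use was made of the other labels on their lists.

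The lists held 77288, 76846 and 76655 nuclear nucleosomes in Ioc3-KO, in Ioc3-R739E/R742E and in Ioc3-Q251K/D252K, against 76048, 75746 and 75969 in WT1, WT2 and WT3, with 10281474 to 10347642 reads assigned per list. The coding region of IOC3 (chrVI:169922-172285) held 5 calls with 825 reads in Ioc3-KO, against 16 to 18 calls with 2228 to 2570 reads in the other 5 lists. The median peak height of all calls was 1.34, 1.40 and 1.40 in the Ioc3 lists in that order, against 1.44, 1.47 and 1.45 in WT1, in WT2 and in WT3. The median fuzziness, the standard deviation of read positions around a call, was 33.3, 32.5 and 32.3 bp in the Ioc3 lists, against 31.9, 31.5 and 31.9 bp in the wild-type lists. The order of the 6 lists by number of calls is also their order by number of close pairs, and the part of call number, height and fuzziness in the results below was not tested.

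Every Ioc3 list held more close pairs than every wild-type list, and the deletion held the most. Close pairs made up 18.3% of adjacent pairs in Ioc3-KO, 16.9% in Ioc3-R739E/R742E and 16.1% in Ioc3-Q251K/D252K, against 15.2% in WT1, 14.0% in WT2 and 14.7% in WT3. The means were 17.1 ± 1.08% in the Ioc3 lists and 14.6 ± 0.614% in the wild-type lists (SD, n = 3 lists each), a difference of 2.47 percentage points. The 2 groups of lists did not overlap, which gives p = 0.1 in the exact two-sided permutation test, the smallest value that 3 lists against 3 allow, and an adjusted p of 0.2 over the 22 list-level measures. Of all nuclear nucleosomes, 28.9%, 26.7% and 25.4% belonged to at least 1 close pair in Ioc3-KO, in Ioc3-R739E/R742E and in Ioc3-Q251K/D252K, against 23.9%, 22.2% and 23.4% in WT1, in WT2 and in WT3. The deletion list stood highest and the Ioc3-Q251K/D252K list nearest to wild type, an order among genotypes that could not be tested with 1 list each.

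Below the main peak of spacings, the close pairs formed a shoulder with a cut-off at its lower edge. No list held a pair closer than 73 bp, and 128 to 187 pairs per list stood at exactly that distance. From 80 to 89 bp there were 3658, 3322 and 3136 pairs in Ioc3-KO, in Ioc3-R739E/R742E and in Ioc3-Q251K/D252K. WT1 held 2914 there, WT2 held 2693 and WT3 held 2740. Where the shoulder was highest differed between lists. In finer bins of equal width, the bin from 75 bp held more pairs than that from 80 bp in Ioc3-KO, Ioc3-Q251K/D252K and WT2. It held fewer in Ioc3-R739E/R742E, in WT1 and in WT3. The number of pairs per 10 bp was lowest from 110 to 130 bp on the way to the main peak. It was highest at 160 to 169 bp, the usual repeat of yeast chromatin. In that main peak the order of the groups turned round, with 14856, 16564 and 16956 pairs in the Ioc3 lists against 17781, 18407 and 17854 in the wild-type lists. The median spacing within close pairs was 92 to 93.5 bp in all 6 lists, a range that the 73 bp floor and the 120 bp limit largely set.

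**Figure D1:**
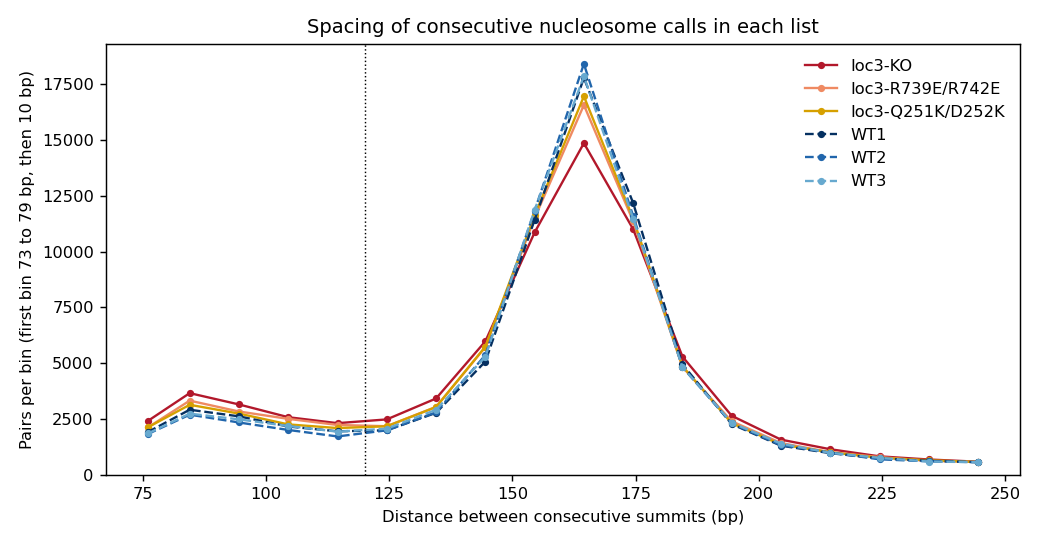
Number of consecutive pairs of calls by the distance between their summits in bp, for the 3 Ioc3 lists (solid lines) and the 3 wild-type lists (broken lines); the dotted line marks 120 bp. The Ioc3 lists lie above the wild-type lists in the shoulder from 73 bp to under 120 bp and below them in the main peak at 160 to 169 bp.

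Members of close pairs were lower and broader than other calls. Their median peak height was 0.976, 1.01 and 0.993 in Ioc3-KO, in Ioc3-R739E/R742E and in Ioc3-Q251K/D252K, against 1.02, 1.03 and 1.03 in WT1, WT2 and WT3, while members of pairs 140 to under 200 bp apart had medians of 1.48, 1.53 and 1.52 against 1.56, 1.59 and 1.57. The median fuzziness of close members was 39.0, 38.9 and 39.0 bp in the Ioc3 lists, against 39.0, 39.1 and 39.1 bp in the wild-type lists, and that of the wider pairs was 31.3, 30.5 and 30.3 bp against 29.9, 29.7 and 30.0 bp. The fuzziness of the wider pairs separated the Ioc3 from the wild-type lists without overlap (exact two-sided permutation p = 0.1), whereas that of the close members had a mean difference of -0.0687 bp and did not separate them (p = 0.2). A close member carried a median of 116 to 123 reads, which puts the counting error of its mean read position at 3.52 to 3.62 bp.

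Within a pair the members were unequal in height. The weaker member had a median of 0.704, 0.695 and 0.705 of the stronger one's height in Ioc3-KO, in Ioc3-R739E/R742E and in Ioc3-Q251K/D252K, against 0.696, 0.698 and 0.699 in WT1, WT2 and WT3, values that did not separate the groups (exact two-sided permutation p = 0.4). A member under 0.25 of the list's median height was present in 12.6%, 16.1% and 13.8% of close pairs in the Ioc3 lists, against 16.5%, 17.9% and 19.1% in the wild-type lists. The groups did not overlap in this share (exact two-sided permutation p = 0.1), so very weak calls did not make up more of the pairs in the Ioc3 lists.

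Close pairs clustered. Between 66.3% and 68.6% of them shared a member with another close pair, in runs of at least 2 pairs, and the longest run held 11, 11 and 11 pairs in Ioc3-KO, in Ioc3-R739E/R742E and in Ioc3-Q251K/D252K, against 12, 11 and 10 in WT1, WT2 and WT3. For pairs that stood alone, the calls on either side lay 440, 444 and 441 bp apart in the Ioc3 lists, against 444, 443 and 443 bp in the wild-type lists. Around ordinary pairs of 140 to under 200 bp that span was 493 to 495 bp, and 3 repeats at each list's own median repeat come to 495 to 498 bp. The shorter span around close pairs follows from the rule, which keeps their inner gap under 120 bp. The outer gaps of lone pairs, which only had to reach 120 bp, were 167 to 170 bp. The spans of the groups overlapped.

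The fates of the 11557 WT1 pairs were read in the other 5 lists, matching each member within 50 bp. A pair still under 120 bp was found in 43.9% of cases in Ioc3-KO, 46.8% in Ioc3-R739E/R742E and 44.6% in Ioc3-Q251K/D252K, against 41.5% in WT2 and 42.8% in WT3. Only 1 call was left in 44.8%, 42.4% and 43.9% in the Ioc3 lists in that order, against 46.2% in WT2 and 45.5% in WT3. The level of this share depends on the matching distance. With matching within 30 bp the means were 48.5% in the Ioc3 lists and 51.0% in WT2 and WT3, and with 70 bp 34.9% and 37.3%. The pair stood 120 bp or more apart in 10.1%, 9.74% and 10.6% in the Ioc3 lists, against 11.1% and 10.5% in WT2 and WT3. No call at all was found in 1.00% of cases in Ioc3-KO and in fewer in the other lists. Fewer than 1 in 2 WT1 pairs were thus still under 120 bp even in another wild-type list. Of the 53666 WT1 pairs of 140 to under 200 bp, 88.2%, 91.2% and 91.4% kept both members in the Ioc3 lists. The shares were 92.6% in WT2 and 92.4% in WT3. Keeping both members is a looser measure, which close pairs that stood 120 bp or more apart also met.

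The Ioc3 lists kept more of the WT1 pairs than WT2 and WT3 did, but the difference depends on the list that chose the pairs. The mean share that persisted was 45.1 ± 1.55% in the Ioc3 lists (SD, n = 3) and 42.2 ± 0.948% in WT2 and WT3 (SD, n = 2), with an exact two-sided permutation p = 0.2, the smallest that 3 lists against 2 allow. With the pairs chosen in WT2 the difference turned round, to -0.192 percentage points: WT2 pairs persisted in 42.6%, 45.5% and 44.3% in Ioc3-KO, in Ioc3-R739E/R742E and in Ioc3-Q251K/D252K, against 45.3% in WT1 and 43.3% in WT3. With the pairs chosen in WT3 it kept its sign, at 1.99 points, but the groups overlapped. WT3 pairs persisted in 43.5%, 46.5% and 43.8% in the Ioc3 lists, against 44.2% in WT1 and 41.0% in WT2. Pairs chosen in Ioc3-KO persisted in 41.8% in Ioc3-R739E/R742E and 39.6% in Ioc3-Q251K/D252K, and in 35.9%, 31.9% and 34.5% in WT1, WT2 and WT3. No list of an Ioc3 genotype thus kept fewer of the pairs chosen in WT1 than both other wild-type lists did.

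Where 1 call was left, it stood at the place of an old member and not between them. The single call lay in the middle of the interval, more than 0.25 of its length from either WT1 member, in 8.11%, 6.95% and 7.57% of these cases in Ioc3-KO, in Ioc3-R739E/R742E and in Ioc3-Q251K/D252K, against 7.30% in WT2 and 6.41% in WT3. Its median distance to the nearer member was 6, 5 and 5 bp in the Ioc3 lists, against 5 and 5 bp in WT2 and WT3. Among the single calls outside the middle, 81.0%, 85.0% and 85.2% stood at the taller of the WT1 members in the Ioc3 lists, against 86.2% and 86.8% in WT2 and WT3. In these cases the lower call was thus usually the one no longer listed. Ioc3-KO had the lowest of these 5 shares, and the groups did not overlap (exact two-sided permutation p = 0.2, the smallest possible). From 150 bp left of the left WT1 member to 150 bp right of the right one, merged pairs had 1 call fewer than WT1 in 61.8%, 64.7% and 65.0% in the Ioc3 lists, against 66.8% and 66.8% in WT2 and WT3. The number of calls there was unchanged in 24.7%, 22.2% and 22.7% in the Ioc3 lists, against 22.0% and 20.7% in WT2 and WT3. A merged pair was thus most often a pair with a member missing, but not in every case.

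**Figure D2:**
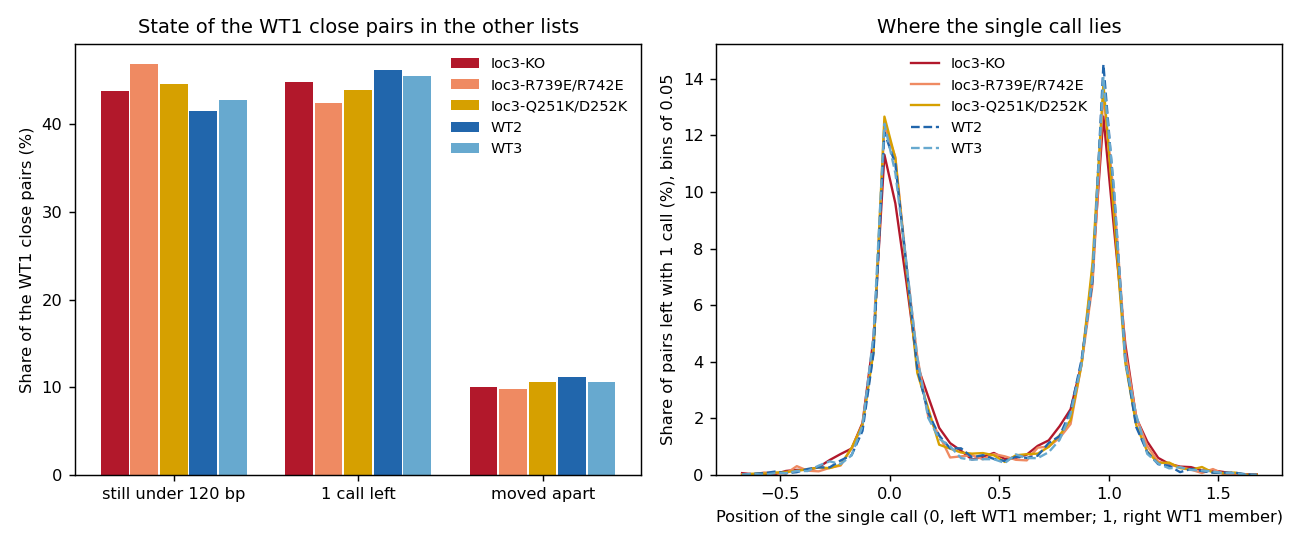
Left, the share of the 11557 WT1 close pairs that stayed under 120 bp, had 1 call left or moved apart in each other list; right, the position of the single call between the WT1 members, for the Ioc3 lists (solid lines) and WT2 and WT3 (broken lines). Each state differs between lists by a few percentage points, and the single call stands at a member in all 5 lists.

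A pair was scored as moved apart only where each call lay within 50 bp of its WT1 member, so larger moves were not counted here. The median spacing of pairs scored so was 135, 135 and 134 bp in Ioc3-KO, in Ioc3-R739E/R742E and in Ioc3-Q251K/D252K, against 133 and 134 bp in WT2 and WT3. Their median widening was 28 to 31 bp. These medians lie short of the main peak of spacings at 160 to 169 bp, but the matching distance limits them. With matching within 30 bp the mean share that moved apart was 5.55% in the Ioc3 lists and 6.01% in WT2 and WT3. With matching within 70 bp it was 18.5% and 19.0%. Pairs that persisted changed their spacing by a median of 7 or 8 bp in either direction.

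How often a pair stayed under 120 bp varied with its spacing and height. At 73 to 79 bp, 36.4%, 39.5% and 37.95% of pairs persisted in Ioc3-KO, in Ioc3-R739E/R742E and in Ioc3-Q251K/D252K, against 36.2% and 35.8% in WT2 and WT3. At 90 to 99 bp the shares were highest, at 48.2%, 52.7% and 49.8% in the Ioc3 lists, against 48.2% and 49.2% in WT2 and WT3. Pairs just inside the limit, from 115 to under 120 bp (n = 941), persisted in 34.3%, 35.9% and 34.6% in the Ioc3 lists, against 28.9% and 33.0% in WT2 and WT3, and pairs just outside it, at 120 to 124 bp (n = 962), stood under 120 bp in 30.2%, 30.0% and 26.7% in the Ioc3 lists, against 19.1% and 25.5% in WT2 and WT3. Pairs whose weaker member reached less than 0.25 of the stronger one's height persisted in 34.4%, 32.9% and 29.5% in the Ioc3 lists, against 25.9% and 27.9% in WT2 and WT3. Where the weaker member reached at least 0.75 of the stronger one's height, the shares were 47.5%, 52.6% and 49.5% in the Ioc3 lists, against 47.9% and 49.1% in WT2 and WT3.

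Counted over lists, 1201 of the WT1 pairs (10.4%) were close in all other 5 lists and 2084 (18.0%) were close in none. The first set had members of more equal height, with a median ratio of weaker to stronger of 0.767 against 0.596 in the second, and its weaker member stood at 0.665 of the list's median height against 0.466. Their spacing was alike, with medians of 93 and 92 bp. Ioc3-KO had the most pairs found in no other list, 4000 (28.3% of its close pairs), against 2594 (19.9%) in Ioc3-R739E/R742E, 2374 (19.2%) in Ioc3-Q251K/D252K, 2084 (18.0%) in WT1, 1996 (18.8%) in WT2 and 2076 (18.6%) in WT3. Private pairs were thus more frequent in the deletion than in any of the other lists, where the share varied by under 2 percentage points.

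Close pairs new relative to WT1 numbered 9043 in Ioc3-KO, 7599 in Ioc3-R739E/R742E and 7198 in Ioc3-Q251K/D252K, against 5793 in WT2 and 6241 in WT3. They made up 64.1%, 58.4% and 58.3% of each Ioc3 list's close pairs, against 54.7% and 55.8% in WT2 and WT3 (means 60.2 ± 3.32% and 55.2 ± 0.753%, SD, n = 3 and 2, exact two-sided permutation p = 0.2, the smallest possible). Beside the WT1 pairs that were lost, each list gained 1.39, 1.24 and 1.12 new pairs per lost pair in Ioc3-KO, in Ioc3-R739E/R742E and in Ioc3-Q251K/D252K, against 0.857 in WT2 and 0.945 in WT3. New pairs were thus in the majority between lists of the same genotype too.

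At the sites of new pairs WT1 mostly listed a single nucleosome. That was so for 79.6%, 79.98% and 81.6% of the new pairs of Ioc3-KO, of Ioc3-R739E/R742E and of Ioc3-Q251K/D252K, against 81.5% and 79.9% of those of WT2 and WT3. A pair further apart in WT1 underlay 18.7%, 18.3% and 16.5% in the Ioc3 lists, against 16.8% and 18.1% in WT2 and WT3, with a median WT1 spacing of 134 to 138 bp. Most new pairs thus matched a single WT1 call, and fewer matched WT1 calls that lay further apart. WT1 calls just beyond the matching distance were not counted for new pairs. Whether a call was added or an existing call had moved in was therefore not tested. The single WT1 calls at these sites were broad, with a median fuzziness of 35.7, 36.1 and 36.3 bp for the Ioc3 lists, against 36.4 and 36.3 bp for WT2 and WT3.

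Some pairs followed genotype across all 6 lists. Read from Ioc3-KO, 449 pairs were close in all 3 Ioc3 lists and in no wild-type list, and read from WT1, 224 pairs were close in all 3 wild-type lists and in no Ioc3 list. These are 3.18% of the Ioc3-KO pairs and 1.94% of the WT1 pairs, small beside the 1201 WT1 pairs close in every list. Of the Ioc3-only set 76.6% lay in coding regions and of the wild-type-only set 73.2%, against 73.1% of all Ioc3-KO close pairs and 70.6% of all WT1 close pairs. On the side without the pair, 1 call was found in 77.2% of readings for the Ioc3-only set and in 76.2% for the wild-type-only set. Both sets were chosen on these states, which carry no test.

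Single pairs show these patterns. Pairs close in all lists were ranked by their spacing in WT1, so their WT1 values were chosen to be small. A pair at the smallest WT1 spacing lay near the end of CHL1, a DNA helicase of sister chromatid cohesion (chrXVI:541829-541902). Its spacings were 81, 74 and 76 bp in Ioc3-KO, in Ioc3-R739E/R742E and in Ioc3-Q251K/D252K. In WT1, WT2 and WT3 they were 73, 74 and 83 bp. In each list its left call was the taller, at 1.502, 1.37 and 1.24 in the Ioc3 lists in that order and from 1.31 to 1.55 in the wild-type lists. A second stable pair lay between the convergent genes YIL089W and AVT7, a vacuolar amino acid transporter family member (chrIX:196882-196956), at 86, 87 and 84 bp in the Ioc3 lists against 74, 82 and 85 bp in the wild-type lists. The other 4 of the 6 stable pairs tightest in WT1 were in YGR130C and in the Ty elements YPR137C-B, YML039W and YGR027W-B. Near-identical copies of these Ty elements make the assignment of reads uncertain. Outside WT1 some were not tight. The pair in YGR130C stood at 73 bp in WT1 and at 79 to 104 bp in the other lists. That in YPR137C-B stood at 74 bp in WT1 and at 94 to 102 bp in the others.

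Of the 8 named pairs seen in wild type only, those in SPT6 and ALD3 lay outside Ty elements, subtelomeres and the CUP1 repeat. In SPT6, which encodes a histone chaperone of transcription elongation, the pair (chrVII:724131-724222) stood at 130, 126 and 134 bp in Ioc3-KO, in Ioc3-R739E/R742E and in Ioc3-Q251K/D252K, against 91, 101 and 98 bp in the 3 wild-type lists. ALD3, an aldehyde dehydrogenase gene, lies beside its highly similar paralog ALD2, so reads may be shared there and the pair is uncertain. In ALD3 the lists of the 3 Ioc3 genotypes held a single call 34, 35 and 34 bp to the right of the pair's middle, where WT1, WT2 and WT3 held 2 calls at spacings of 80, 78 and 77 bp (chrXIII:600626-600706). The single ALD3 call had a height of 2.10, 1.81 and 2.19 in the Ioc3 lists, against 1.62 to 1.80 for the left and 1.70 to 1.77 for the right calls of the wild-type lists. The others lay in RSC30 and YHR054C beside the copy-number-variable CUP1 repeat, at the subtelomeric PAU10 / YRF1-1 and YPR204W, and as 2 pairs in the Ty element YBL005W-B, all in repeated sequence and so uncertain.

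Among the 8 named pairs seen in Ioc3 lists only, LYS1, a lysine biosynthesis gene, supplied 2 that share a call. The lists of Ioc3-KO, of Ioc3-R739E/R742E and of Ioc3-Q251K/D252K held 3 calls there, at spacings of 91, 85 and 88 bp (chrIX:419612-419703) and then 86, 76 and 79 bp (chrIX:419703-419789), whereas WT1, WT2 and WT3 held 1 call near each outer position. Between the convergent Ty element YFL002W-A and SPB4, a ribosome assembly helicase gene (chrVI:144343-144460), the spacing was 117, 88 and 109 bp in the Ioc3 lists, against 124, 137 and 123 bp in the wild-type lists. In ENA2, a sodium pump gene with near-identical neighbours (chrIV:531977-532084), the Ioc3 lists held pairs at 107, 96 and 98 bp and the wild-type lists a single call. The last 4, in YML045W, YPR158W-B, YBR012W-B and YAR009C, were in Ty elements and are uncertain.

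**Figure D3:**
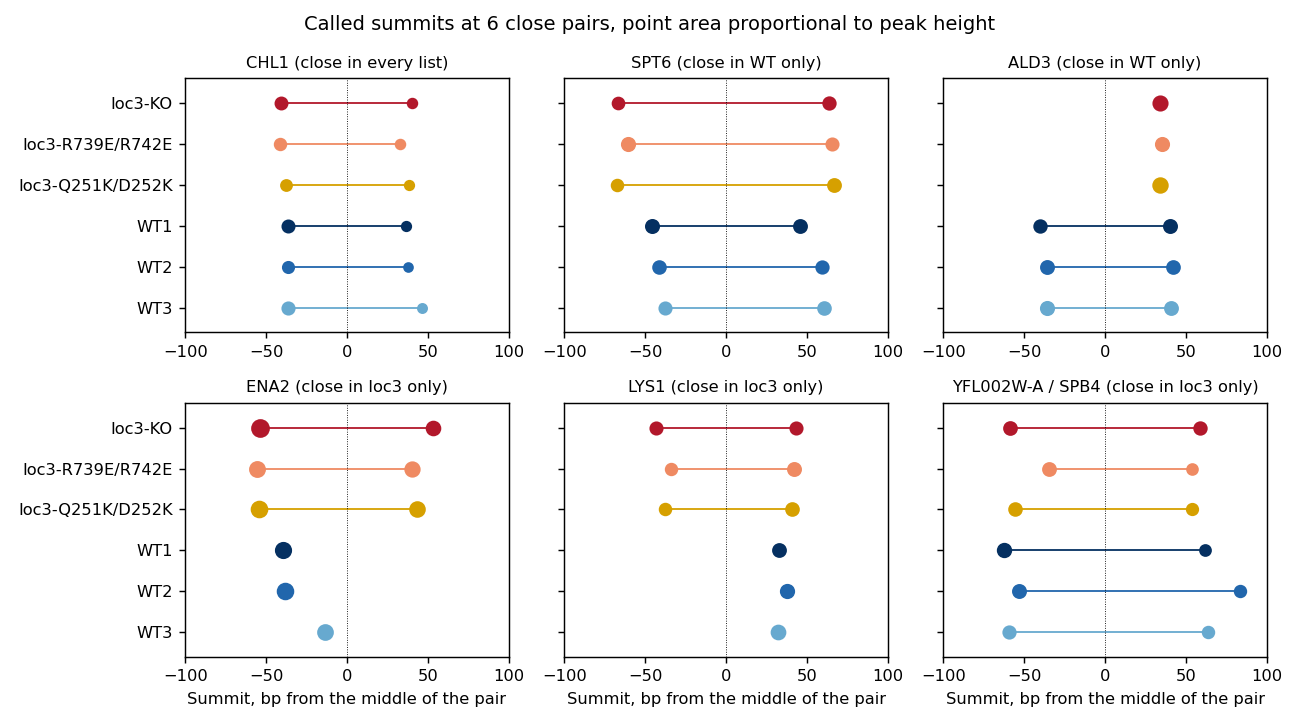
Called summits at 6 named pairs, as bp from the middle of the pair, with 1 row per list (Ioc3 lists above wild-type lists) and point area proportional to peak height; a line joins the 2 matched calls. CHL1 kept a close pair in every list, SPT6 was wider in the Ioc3 lists, ALD3 had 1 call in the Ioc3 lists, and ENA2, LYS1 and YFL002W-A / SPB4 were close in the Ioc3 lists alone.

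The share of close pairs depended strongly on the place within a gene. In the first 500 bp of coding regions, 6.76%, 5.71% and 5.79% of adjacent pairs were close in Ioc3-KO, in Ioc3-R739E/R742E and in Ioc3-Q251K/D252K, against 5.23%, 4.80% and 4.89% in WT1, WT2 and WT3. From 500 to 1000 bp the shares were 14.5%, 10.9% and 9.86% in the Ioc3 lists, against 9.01%, 7.78% and 8.40% in the wild-type lists. Beyond 2000 bp they were 33.4%, 33.2% and 32.6% in the Ioc3 lists, against 30.7%, 29.0% and 29.7% in the wild-type lists. Regular arrays in yeast are phased from the nucleosome-depleted region at the 5' end of genes, and close pairs were scarce where that phasing is known to be strongest.

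The Ioc3 lists lay above all wild-type lists in every stretch of coding regions named, and the ratio of the means was largest, 1.40, from 500 to 1000 bp. It was 1.22 in the first 500 bp, 1.20 from 1000 to 2000 bp and 1.11 beyond. Each of these 4 comparisons had an exact two-sided permutation p = 0.1, the smallest possible, and an adjusted p of 0.156 over the 14 locations and gene lists compared. In bins of 250 bp, Ioc3-KO stood apart from 500 to 750 bp with 12.4% close pairs, against 9.31% in Ioc3-R739E/R742E, 7.97% in Ioc3-Q251K/D252K, and 7.21%, 6.30% and 7.01% in WT1, WT2 and WT3. From 2250 to 2500 bp the shares were 30.5%, 30.4% and 30.5% in the Ioc3 lists, against 25.9%, 25.1% and 26.2% in the wild-type lists. From 250 to 500 bp the groups overlapped, with 7.22%, 5.47% and 5.96% in the Ioc3 lists, against 5.595%, 4.83% and 4.71% in the wild-type lists. The bins were not tested.

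**Figure D4:**
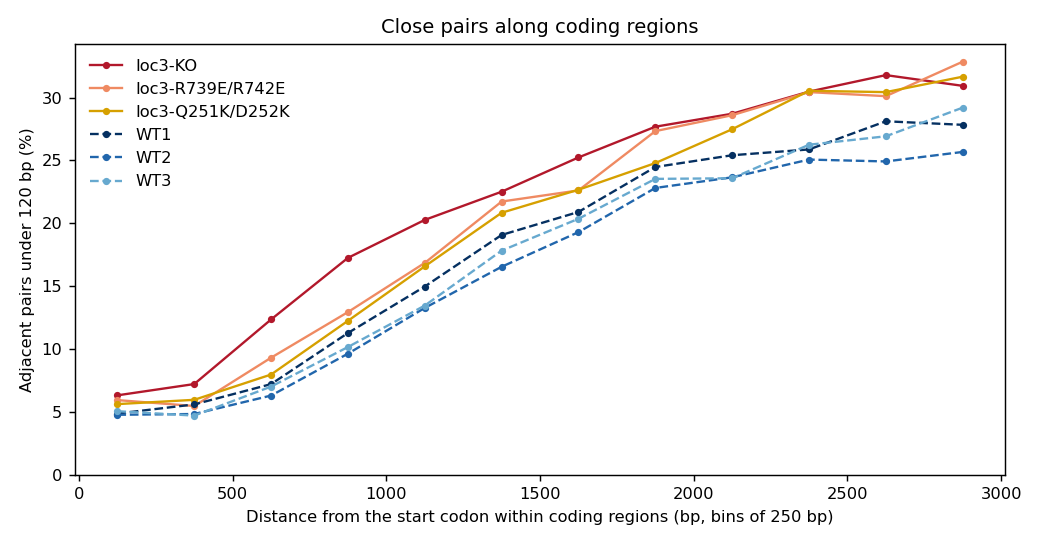
Share of adjacent pairs under 120 bp against distance from the start codon in coding regions, in bins of 250 bp, for the Ioc3 lists (solid lines) and the wild-type lists (broken lines). The share is higher far from the start codon than near it in all 6 lists, and Ioc3-KO lies furthest above the others between 500 and 1250 bp.

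Between genes the ratio of the means was 1.07 in divergent, 1.11 in tandem and 1.10 in convergent regions. The last 2 are near the 1.11 of coding regions beyond 2000 bp. In divergent intergenic regions, which hold promoters on both sides, 18.9%, 19.1% and 17.1% of pairs were close in Ioc3-KO, in Ioc3-R739E/R742E and in Ioc3-Q251K/D252K, against 17.7%, 15.8% and 18.3% in WT1, WT2 and WT3, and the groups overlapped (exact two-sided permutation p = 0.3, adjusted p = 0.35). In convergent regions, which hold gene ends, the shares were 21.5%, 21.0% and 20.3% in the Ioc3 lists, against 19.3%, 18.2% and 19.4% in the wild-type lists. In tandem regions they were 18.3%, 18.5% and 16.8% in the Ioc3 lists, against 16.2%, 15.7% and 16.5% in the wild-type lists. Convergent and tandem regions had no overlap between groups (exact two-sided permutation p = 0.1 each).

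The fate of the WT1 pairs also varied by place. In coding regions beyond 2000 bp, 48.1%, 51.5% and 50.05% persisted in Ioc3-KO, in Ioc3-R739E/R742E and in Ioc3-Q251K/D252K, against 46.6% and 48.6% in WT2 and WT3. In divergent regions 38.8%, 41.2% and 38.4% persisted in the Ioc3 lists, against 36.3% and 40.3% in WT2 and WT3. The 140 WT1 pairs within 200 bp of a tRNA gene moved apart in 2.14%, 2.86% and 4.29% of cases in the Ioc3 lists, against 4.29% and 4.29% in WT2 and WT3, less than the 9.74% to 11.1% over all WT1 close pairs. In coding and divergent regions WT2 and WT3 differed from each other by as much as some Ioc3 lists did from them.

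By gene, 3938 of 6002 coding regions held a close pair in at least 1 list and 1325 in every list. Every Ioc3 list exceeded every wild-type list at 187 genes (4.75% of the 3938) and stayed below every one at 35 (0.889%). The genes with the largest mean differences, chosen after their values were seen, were long. ARO1, which encodes the multifunctional enzyme of the shikimate pathway, held 18, 15 and 12 close pairs in Ioc3-KO, in Ioc3-R739E/R742E and in Ioc3-Q251K/D252K, against 5, 6 and 11 in WT1, in WT2 and in WT3. The ubiquitin ligase gene UFD4 held 12, 11 and 10 in the Ioc3 lists, against 1, 6 and 6 in the wild-type lists. RAD26, a DNA-dependent ATPase of transcription-coupled repair, held 9, 7 and 5 against 2, 0 and 1. SET1, the histone H3 lysine methyltransferase, held 9, 6 and 6 against 0, 4 and 1.

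Other long genes followed the same order. The cohesin loader gene SCC2 held 14, 11 and 18 close pairs in Ioc3-KO, in Ioc3-R739E/R742E and in Ioc3-Q251K/D252K, against 8, 10 and 8 in WT1, WT2 and WT3, and EDE1, an endocytosis scaffold gene, held 12, 13 and 10 against 5, 6 and 6. In the opposite direction GPH1, the glycogen phosphorylase gene, held 7, 8 and 6 in the Ioc3 lists, against 13, 9 and 10 in the wild-type lists. TPO1, a polyamine transporter gene, held 2, 3 and 1 against 6, 6 and 4. PEP1, a sorting receptor gene, held 10, 14 and 10 against 16, 15 and 16. The pairs in a gene share members in runs, so these counts are not independent within a gene.

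Glycolysis genes had a larger share of close pairs in every Ioc3 list than in any wild-type list, taken as a group. Over the 12 genes of that list, 38.0%, 47.4% and 37.6% of adjacent pairs were close in Ioc3-KO, in Ioc3-R739E/R742E and in Ioc3-Q251K/D252K, against 35.8%, 32.6% and 30.4% in WT1, WT2 and WT3 (exact two-sided permutation p = 0.1, adjusted p = 0.156). These shares rest on 35, 46 and 35 close pairs against 34, 30 and 28, so Ioc3-KO and Ioc3-Q251K/D252K barely exceeded WT1 by count. Over all coding pairs the shares were 18.0%, 16.2% and 15.6% in the Ioc3 lists, against 14.5%, 13.2% and 13.7% in the wild-type lists, and the gene list was not tested against them. FBA1, the aldolase gene, was the 1 gene of the 12 that separated the groups by itself, as 4.75% of the 3938 genes with a close pair did in this direction, with 4, 4 and 4 close pairs in the Ioc3 lists against 2, 3 and 3 in the wild-type lists. ADH1, an alcohol dehydrogenase gene, had 6, 7 and 6 against 4, 5 and 8. The 138 cytosolic ribosomal protein genes had shares of 20.03%, 17.0% and 17.3% in the Ioc3 lists, against 15.6%, 11.6% and 17.8% in the wild-type lists, which overlapped (exact two-sided permutation p = 0.3).

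Of the ribosomal protein genes, 110 held a close pair in some list. Those described next held more in every Ioc3 list than in any wild-type list, as 4.75% of all genes with a close pair did. RPS26B held 3, 4 and 3 in Ioc3-KO, in Ioc3-R739E/R742E and in Ioc3-Q251K/D252K, against 1, 1 and 1 in WT1, WT2 and WT3, and RPS16B held 3, 1 and 1 against 0, 0 and 0. RPL17A and RPL18B each held 1, 1 and 1 against 0, 0 and 0. Many of these genes have near-identical paralogs, so reads may be shared between copies. The histone genes held 2, 4 and 5 close pairs in all in the Ioc3 lists, against 3, 3 and 3 in the wild-type lists, of which HHT1, a histone H3 gene, held 2 in each of the 6 lists.

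Genes of the remodelers themselves showed how much single loci vary between wild-type lists. CHD1, which encodes another spacing remodeler, held 6, 9 and 8 close pairs in Ioc3-KO, in Ioc3-R739E/R742E and in Ioc3-Q251K/D252K, against 1, 1 and 10 in WT1, WT2 and WT3. ISW1 held 4, 4 and 2 against 2, 2 and 4, and ISW2 held 7, 7 and 12 against 8, 6 and 5. IOC3 held 0 in its own deletion list, 2 and 4 in the point mutant lists, and 2, 5 and 9 in WT1, WT2 and WT3. No gene of this list separated the groups.

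Pairs that could be matched as adjacent calls in every list were tested for spacing, fuzziness and height. The 120 bp rule used spacing, in WT1, and did not use fuzziness or height. The matching kept 2270 of the 11557 WT1 close pairs, those with both members in all 6 lists at any spacing, and says nothing of the others. The 3 Ioc3 lists were set against WT2 and WT3 with limma over all 49998 adjacent pairs matched in every list, WT1 being left out since it chose the pairs. Spacing itself gave no call at an adjusted p under 0.05 among the close pairs or among all pairs (0.0% of 49998). Without adjustment, 284 close pairs (12.5%) had p under 0.05, against 7.79% of all adjacent pairs.

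The smallest p for spacing among the close pairs was in ALT1, an alanine transaminase gene, where the mean spacing was 148 bp in the Ioc3 lists and 98.5 bp in WT2 and WT3, a difference of 49.8 bp (SE 4.12, limma adjusted p = 0.125, n = 3 and 2 lists). THO2, a gene of mRNA export, came next by p, where the mean was 111 bp in the Ioc3 lists and 147 bp in WT2 and WT3 (difference -36.0 bp, SE 3.29, limma adjusted p = 0.130). SPT6 was next, with a mean of 130 bp in the Ioc3 lists and 99.5 bp in WT2 and WT3 (difference 30.5 bp, SE 3.36, limma adjusted p = 0.163). None of these 3, chosen after their values were seen, passed the threshold. The median difference over the 2270 pairs was -0.33 bp.

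Fuzziness gave no call either, among the close pairs or among all pairs (0.0% of 49997), and 232 close pairs (10.2%) had an unadjusted limma p under 0.05, against 14.3% of all adjacent pairs. The median difference was -0.07 bp over the close pairs and 0.88 bp over all adjacent pairs. Among all pairs 71.6% were fuzzier in the Ioc3 lists, and among the close pairs 48.3%. With each list centred on its own median fuzziness, the median difference became -1.17 bp over the close pairs, of which 23.3% were higher in the Ioc3 lists, and -0.21 bp over all pairs, of which 44.4% were higher. On that scale 393 close pairs had an unadjusted limma p under 0.05, 36 of them higher, and 0 passed after adjustment. The median fuzziness of the matched close pairs was 37.9, 37.8 and 37.7 bp in Ioc3-KO, in Ioc3-R739E/R742E and in Ioc3-Q251K/D252K, against 37.9 and 38.0 bp in WT2 and WT3. Over all matched pairs it was 31.1, 30.1 and 29.8 bp in the Ioc3 lists, against 29.0 and 29.4 bp in WT2 and WT3.

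Peak height changed at some close pairs, nearly always upward and mostly between genes. The summed height of both members, as log2 over the list's median height, was called at 164 close pairs (7.22%) by limma at an adjusted p under 0.05, 156 higher and 8 lower in the Ioc3 lists. Over all adjacent pairs 4.66% were called, 3.82% higher and 0.838% lower. Of the 604 close pairs between genes, 130 (21.5%) rose and 0 fell, and 91.4% had a positive difference, with a median of 0.21. Of the 1662 close pairs in coding regions, 26 (1.56%) rose and 8 (0.481%) fell, with a median of 0.03.

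Ordinary pairs between genes moved the same way. Of all 10135 adjacent intergenic pairs 14.2% rose and 0.128% fell, and of all 39749 coding pairs 1.17% rose and 1.02% fell, so the increase was found at intergenic pairs at large, close or not. By class, 25.6% of convergent and 21.3% of divergent close pairs and 60 of the 300 tandem ones rose, against 16.5%, 11.7% and 15.01% of all pairs in the same classes. Intergenic close pairs were low to begin with, at median log2 values of 0.74 in the Ioc3 lists and 0.59 in WT2 and WT3 in convergent regions, 0.63 and 0.46 in divergent regions, and 0.69 and 0.50 in tandem regions.

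**Figure D5:**
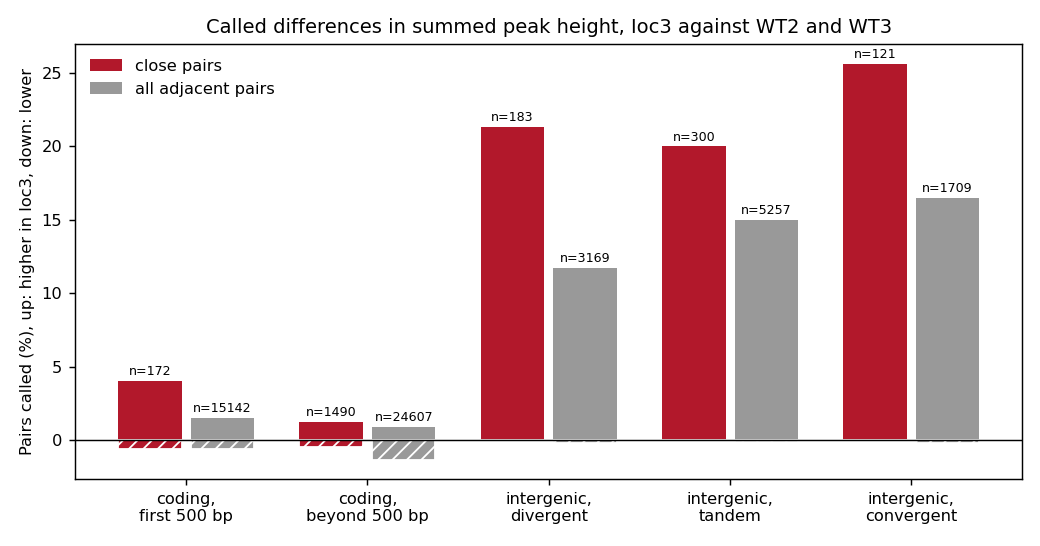
Share of pairs whose summed peak height was called higher (plain bars, up) or lower (hatched bars, down) in the 3 Ioc3 lists than in WT2 and WT3, by location, for close pairs and for all adjacent pairs; n is the number of pairs tested. Calls are frequent between genes and upward, for instance 25.6% of convergent close pairs, and rare in coding regions.

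This count of calls depends on the lists. Leaving out WT2 gave 13 called close pairs, leaving out WT3 gave 29 and leaving out Ioc3-KO gave 32, whereas leaving out Ioc3-R739E/R742E gave 253 and Ioc3-Q251K/D252K 150. With peak heights as deposited, not divided by the list median, 52 were called, 44 higher and 8 lower, of which 41 of the higher ones were intergenic. On that scale the median difference over the close pairs changed sign, to -0.02, while that of the intergenic close pairs stayed positive at 0.13. Over all adjacent pairs, 2331 of which were called, leaving out WT2 gave 78 calls, 77 of them higher, and leaving out WT3 gave 164, 150 of them higher, so the shares given for intergenic and coding pairs at large rest on both wild-type lists. With heights as deposited the direction over all pairs turned round, with 307 higher and 426 lower and a median difference of -0.04. Heights were lower in the Ioc3 lists as deposited, and the scale of the authors' signal is not stated.

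The largest called rise lay in the convergent region between RPS0B, a ribosomal protein gene, and MLO50 (chrXII:243638-243743). Its log2 summed height was -0.79, -0.72 and -0.36 in Ioc3-KO, in Ioc3-R739E/R742E and in Ioc3-Q251K/D252K, against -1.59 in WT2 and -2.17 in WT3, a difference of 1.25 (SE 0.15, limma adjusted p = 0.00127). WT1 stood at -1.004, below all 3 Ioc3 lists. The convergent pair between CLG1, a cyclin-like gene, and SKI8, a gene of mRNA decay (chrVII:89780-89892), was at -0.55, -0.67 and -0.68 in the Ioc3 lists, against -1.56 and -1.71 in WT2 and WT3, a difference of 1.00 (SE 0.09, limma adjusted p = 0.000335). These are weak pairs, at under the height of a single median call in every list.

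The next 4 by size were the tandem pairs between UGP1 and TUL1 (difference 0.91), UBC13 and DNF2 (0.90) and ASP1 and MRPL35 (0.89), and the convergent pair between NCE103 and YNL035C (0.91), with limma adjusted p from 0.00155 to 0.0102. UGP1 makes UDP-glucose, UBC13 is a ubiquitin-conjugating enzyme of DNA repair, ASP1 is an asparaginase and NCE103 is carbonic anhydrase. The pair between UGP1 and TUL1 (chrXI:371497-371587) was the tallest of them, at 0.61, 0.35 and 0.56 in Ioc3-KO, in Ioc3-R739E/R742E and in Ioc3-Q251K/D252K, against -0.63 and -0.18 in WT2 and WT3. Its WT1 value of 0.13 lay between the groups. Without WT2 the pairs at UGP1, ASP1 and NCE103 missed the threshold, the pair at NCE103 also without Ioc3-KO, and with robust eBayes the pair at RPS0B did so too (limma adjusted p = 0.0514), as did that at NCE103.

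All 8 called falls were in coding regions, and the 6 largest were in YRF1-6 and DEF1, with 2 pairs each, REG1 and PMS1. In DEF1, a factor for the removal of stalled RNA polymerase II, the pair at chrXI:336961-337057 was at 0.02, 0.19 and 0.13 in Ioc3-KO, in Ioc3-R739E/R742E and in Ioc3-Q251K/D252K, against 0.51 and 0.57 in WT2 and WT3, a difference of -0.43 (SE 0.09, limma adjusted p = 0.0177). WT1 was at 0.44, also above every Ioc3 list. The second DEF1 pair fell by 0.45. REG1, a regulator of glucose repression, fell by 0.40 and PMS1, a mismatch repair gene, by 0.39, and their WT1 values of 0.20 and 0.48 lay within the Ioc3 ranges of 0.03 to 0.26 and of 0.14 to 0.49. YRF1-6 is a subtelomeric helicase gene with near-identical copies and is uncertain. None of these 6 falls passed the threshold without WT2, without WT3 or without Ioc3-KO.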

How the data were processed

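MNase-seq position lists of 6 groups were used, each pooling 2 replicates. Per the submitters' processing notes the authors used Trimmomatic, Bowtie2, SAMtools and the sacCer3 genome. The caller is not given in the sources used here. Each entry has, per the file headers, a summit position in bp, a peak height, which is the authors' signal at the summit, a standard deviation and mean of read positions, and a read count deposited as whole reads per nucleosome. Mitochondrial entries were left out. Depth was 10281474 to 10347642 assigned reads per list. Whether reads can count for both members of a close pair is not stated, and counting errors treat reads as independent.

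Members were taken from WT1 at under 120 bp. In another list, summits from 50 bp left of the left member to 50 bp right of the right member were read: none is an absent pair, 1 is a merged pair, and 2 or more were scored on the consecutive pair that fitted best. Genes came from the reference gene table, with strand from the systematic name and no UTR. Where genes overlap the longer one was used.

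Means over lists had exact two-sided permutation tests, adjusted by Benjamini-Hochberg over 22 measures and over 14 locations. Adjacent pairs were tested with limma 3.58.1 (lmFit, eBayes) in R 4.3.3, with adjustment over all pairs. The lists of 3 different Ioc3 genotypes share 1 spread with the wild-type lists. That fit was tested on simulated data. Python 3.11.15 with numpy 2.4.6, pandas 2.3.3, scipy 1.17.1, statsmodels 0.14.6 and matplotlib 3.10.9 did the rest. Named pairs were the 6 pairs present everywhere with the smallest WT1 spacing. Added to these were the 8 strongest seen in wild type only and in Ioc3 only, and up to 6 called pairs per direction. Some results are not reported here. The members, lists and rules were chosen with earlier results of these data known. The p-values measure the spread between lists, which may be technical. The 120 bp limit, the matching distance, the choosing list, weak calls, chromosome ends, read-position means, each list and, added after the data were seen, unscaled heights were varied.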

Additional observations from a re-analysis of the deposited data

Results flagged for a closer look

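Mitochondrial entries, which no comparison used, held 116, 101 and 98 close pairs in Ioc3-KO, in Ioc3-R739E/R742E and in Ioc3-Q251K/D252K, against 80, 95 and 84 in WT1, WT2 and WT3, and were picked out because every Ioc3 list exceeded every wild-type list in data outside the main measurement. As a share of adjacent mitochondrial pairs the values were 32.0%, 31.2% and 29.7% in the Ioc3 lists, against 29.3%, 35.7% and 31.3% in the wild-type lists, which overlap. The numbers of mitochondrial entries were 364, 325 and 331 in the Ioc3 lists, against 274, 267 and 269 in the wild-type lists. Mitochondrial DNA carries no nucleosomes, so these entries are called peaks of another kind.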

How the results depend on the processing

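No paired analysis was possible because both replicates of a group were pooled in 1 deposited list. The difference in the share of close pairs kept its sign under every alternative tried, between 1.89 and 2.96 percentage points with a list left out. The share of WT1 pairs that persisted ranged from 2.06 to 3.61 points with a list left out, but was -0.192 with pairs chosen in WT2 and 1.99 with pairs chosen in WT3. The share that moved apart (-0.702) reversed to 0.399 with mean read positions and to 0.483 with pairs chosen in WT2, and ranged from -0.992 to -0.412 with a list left out; the share with 1 call left ranged from -2.68 to -1.50 and the number of new pairs from 1382 to 2304. The causes were not tested. Shares by location were recomputed with limits of 110 and 130 bp, without chromosome ends and without each list, and none of 81 values reversed. Spacing gave 0 calls under all limma settings. Fuzziness gave 0 to 2 among close pairs, the 2 without Ioc3-KO, and among all adjacent pairs 0 as reported but 23 without WT3, 10 without WT2, 4 with WT1 included, 4 without Ioc3-Q251K/D252K, 3 without Ioc3-KO, 3 with matching within 30 bp and 1 with robust eBayes. Calls of height among close pairs, 164 as reported, came to 104 with WT1 included, 104 without weak calls, 52 with heights as deposited (44 higher, 8 lower) and 13 to 253 with a list left out. A list left alone on its side was assumed to vary like the others. Intergenic close pairs called higher were 13 to 184 over these settings. For the 12 pairs named for height, 29 of 122 alternative values missed the threshold and 0 reversed. With 3 lists against 3, or 3 against 2, no list-level test can pass 0.05, and about 120 reads per close member limit its position to a few bp.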
